A study of Mus musculus with 6 samples.

Results

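The genes described here are 33 products or regulators of the pancreatic acinar cell, chosen by name: digestive proteases, lipases, amylases, nucleases, zymogen granule proteins and the acinar transcription factors. Probes carrying exactly these names were found for 31 of the 33, on 36 probes, out of 31829 gene names on the array. No probe was named Amy2b or Prss3. The arrays measured RNA of islets isolated from the pancreas. These genes are known as products of the exocrine tissue that surrounds the islets. Which cells gave their signal here was not tested. In a preparation of mixed cells, fewer cells of a type and less RNA per cell cannot be told apart.

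Acinar cells make digestive enzymes as zymogens, pack them into granules and release them into the ducts when stimulated, for example through the cholecystokinin receptor. Their enzyme genes are driven by PTF1, a complex of the basic helix-loop-helix factor Ptf1a, an E-protein partner and the DNA-binding subunit Rbpjl. Bhlha15 (Mist1) shapes the secretory apparatus of serous exocrine cells.

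Labelled RNA from 3 mutant and 3 control samples was hybridised to single-colour Agilent arrays, with 2 pancreata of 1 genotype pooled per sample. Mutant mice were Nkx6.1fl/-;Pdx1-CreERTM and control mice Nkx6.1fl/+;Pdx1-CreERTM, all of them males of 6 weeks on a mixed FVB/N, C57Bl/6J and Cd1 background. Both groups carried the floxed allele and the tamoxifen-inducible recombinase under Pdx1, a promoter of the pancreas, and both received 4 injections of tamoxifen at 2 mg per 25 g of body weight from the age of 4 weeks. The mutants had a null allele in every cell before tamoxifen, and the controls kept a wild-type copy. Mutants B and C and control A shared slide 1, and mutant A and controls B and C shared slide 2.

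Values below are log2 signals relative to the 75th percentile of their own array, and a difference is mutant minus control unless stated otherwise. Nkx6-1 itself stood at 4.38, 4.13 and 4.52 in mutants A, B and C and at 4.87, 4.92 and 4.71 in controls A, B and C. All mutant arrays lay below all control arrays, but the difference of -0.49 (SE 0.14) did not pass the test (limma, adjusted p = 0.126). The hormone genes Ins1, Ins2, Gcg, Sst, Ppy, Iapp and Pyy read between 7.12 and 8.71 on every array, near the top of the scale. The share of probes well above background was 66.8%, 63.8% and 74.4% in mutants A to C and 73.4%, 75.6% and 76.3% in controls A to C. Of 22777 genes tested, 2.56% were called between the groups at an adjusted p under 0.05.

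Several enzymes are encoded by gene families with related sequences, so the probes that bear on the results are shown first. The amylase probes are given because the 2 probes of Amy2a5 read differently and one of them resembles the Amy1 probe. Of 2 probes, the brighter is the one with the higher mean over the arrays. Capitals mark the longest run shared by Amy1, on the minus strand at chr3:113258901-113258960 (mm9), and the brighter probe of Amy2a5, on the minus strand at chr3:113084781-113084840. The dimmer probe of Amy2a5, on the minus strand at chr3:113091400-113091459, has no capitals.
Amy1: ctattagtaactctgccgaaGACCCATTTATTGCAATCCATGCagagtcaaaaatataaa
Amy2a5 brighter probe: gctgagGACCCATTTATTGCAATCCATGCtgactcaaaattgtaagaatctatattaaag
Amy2a5 dimmer probe: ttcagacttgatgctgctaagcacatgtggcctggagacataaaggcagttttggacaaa

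The run shared by Amy1 and Amy2a5 is 23 bases long, and over the 46 bases in which these probes overlap 39 are identical. The trypsinogens Try4 and Try5 share a run of 31 bases, and 43 of their 45 overlapping bases are identical. Apart from these 2, no pair among 625 pairs of probes of different genes shared a run of 15 bases or more. Next came the dimmer of the 2 probes of the trypsinogen Prss1 and the probe of Prss2, with a run of 14 bases that is in capitals here, on the plus strand at chr6:41412628-41412687 and chr6:41473937-41473996 (mm9).
Prss1 dimmer probe: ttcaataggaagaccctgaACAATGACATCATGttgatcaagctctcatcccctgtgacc
Prss2: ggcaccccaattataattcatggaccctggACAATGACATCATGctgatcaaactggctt

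Signals of the amylase pair and of the Try4 and Try5 pair are therefore not certain to come from 1 gene each. The other members stand on probes without such overlap with another member's probe. Probes were compared only with probes, so this cannot show that a signal comes from 1 gene. Matches to other members' transcripts and to genes outside the list were not examined.

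The acinar genes were far more variable among the mutant samples than among the controls. Of the 31 genes, 28 had mutant C as the highest and mutant A as the lowest of all arrays, an order seen in 6.71% of the genes tested. Mutant C exceeded mutant A by more than 4-fold in 23 of the 31, against 1.66% of all genes tested. The median span between the 3 mutant arrays was 2.85 log2 units, and between the 3 control arrays 0.74. Over all genes tested the median spans were 0.37 among mutants and 0.33 among controls. The complete order of mutant C, mutant B, control C, control B, control A and mutant A from high to low held in 23 acinar genes and in 0.575% of all genes.

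**Figure D1:**
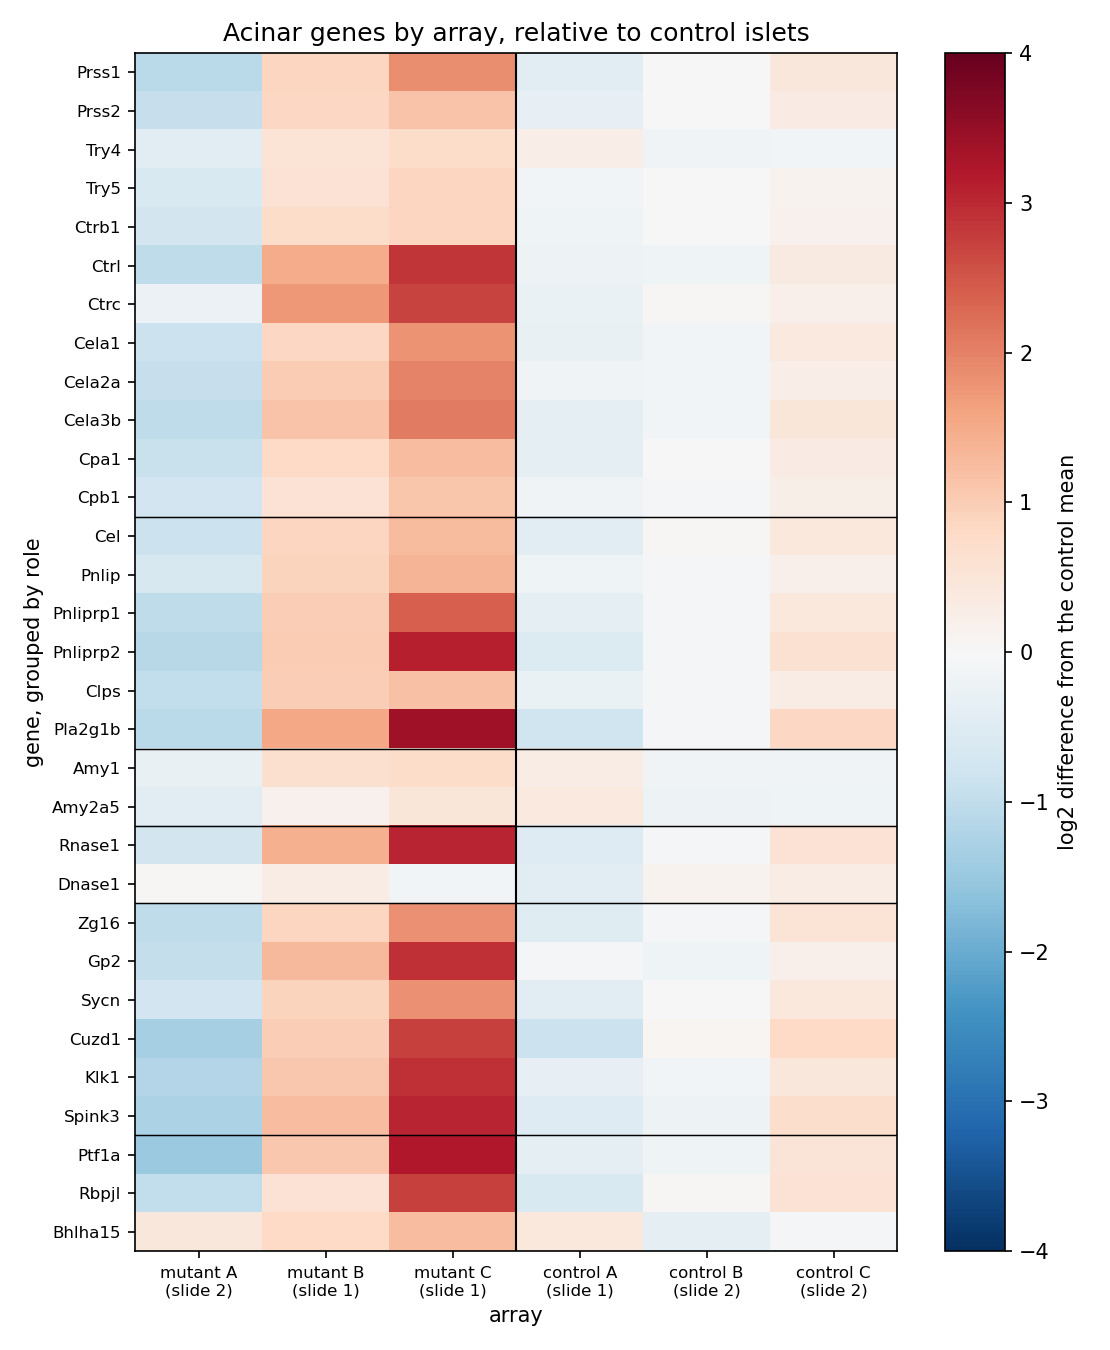
Log2 signal of each acinar gene on each array, minus the mean of the 3 control arrays, with mutants left of controls and genes grouped by role. Mutant C is the reddest column in 30 of 31 genes and mutant A the bluest in 28.

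None of the 31 genes passed the comparison of mutant with control islets, where 2.56% of all genes did (limma, smallest adjusted p = 0.171, with 1 of 31 at an unadjusted p under 0.05 against 20.2% of all genes). Differences were positive in 31 of 31 genes, from 0.075 to 1.40 with a median of 0.64, against a median of -0.033 over all genes. The median standard error of the acinar genes was 0.71, against 0.16 over all genes. Without mutant C the median difference was 0.000237 and 15 of the 31 genes turned negative, so the positive median rested on that array. It was 1.35 without mutant A.

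The slides gave opposite answers. On slide 1, mutants B and C lay above control A in 30 of 31 genes, with a median difference of 1.80. On slide 2, mutant A lay below the mean of controls B and C in 30 of 31 genes, with a median of -1.08. The same medians over all genes were -0.024 on slide 1 and -0.047 on slide 2. The combination of a rise on slide 1 and a drop on slide 2 was met in 29 of 31 acinar genes and in 19.9% of all genes. Each slide held a single sample of 1 group, so slide and sample cannot be told apart.

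Testing the difference between the slides' effects gave 0 called acinar genes and a background of 0% called (limma with slide by genotype, smallest adjusted p = 0.350, residual degrees of freedom 2). At an unadjusted p under 0.05 there were 26 of 31 acinar genes, against 8.08% of all genes. With slide as a block in the comparison of genotypes, 0 acinar genes were called where 2.99% of all genes were, and the median difference was 0.33.

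**Figure D2:**
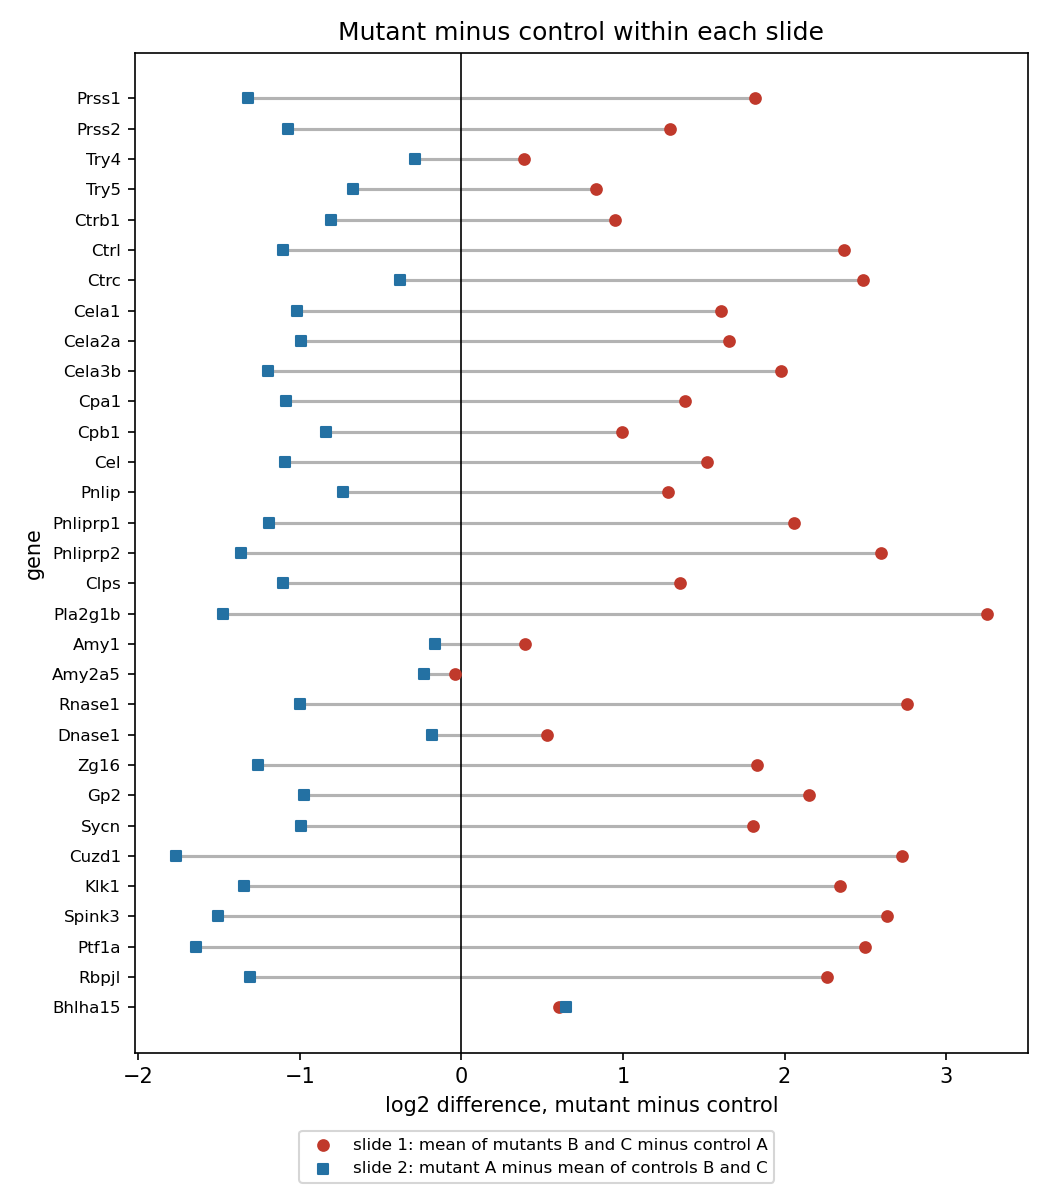
Difference between mutant and control arrays within each slide, for each acinar gene, on the log2 scale, where circles are slide 1 and squares slide 2. In 29 of 31 genes the circle lies above 0 and the square below it, and in Bhlha15 both lie above 0.

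The regulators of the acinar programme did not move alike. Ptf1a is a basic helix-loop-helix subunit of PTF1. It stood at -4.75, -2.19 and -0.06 in mutants A, B and C and at -3.62, -3.45 and -2.76 in controls A, B and C. Mutant C was 25.7-fold above mutant A, the widest span among the 31 genes. The groups overlapped, and the difference of 0.94 (SE 1.12) gave an adjusted p of 0.667. Rbpjl read -1.92, -0.35 and 1.80 in mutants and -1.53, -0.88 and -0.35 in controls, with a difference of 0.76 (SE 0.92, adjusted p = 0.671). Here too mutant C was the highest and mutant A the lowest array, and the groups overlapped.

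Bhlha15 was the exception. Its values of 3.19, 3.54 and 3.97 in mutants A, B and C all lay above the 3.15, 2.39 and 2.69 of controls A, B and C, though mutant A and control A were nearly equal. It was the only 1 of the 31 genes whose groups did not overlap, where 26.3% of all genes did not. The difference was 0.82 (SE 0.27) and did not pass (limma, adjusted p = 0.171, or 0.121 with slide as a block). It was 0.61 on slide 1 and 0.65 on slide 2, and the difference between the slides had an adjusted p of 0.977.

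Promoters of the acinar genes are shown because most of these genes shared 1 order of arrays and PTF1 is known to bind a bipartite site. The 250 bases before the start site were searched on both strands for CANNTG followed by TTCCC, with 4 to 6 or 14 to 16 bases between them, in the RefSeq promoter sequences of GRCm38.p6. A promoter was matched for 26 of the 31 genes. The combination occurred in 5 of them (19.2%), namely Cel, Cela1, Ctrb1, Prss1 and Rbpjl, and in 2.24% of 27025 genes. CANNTG alone was found in 76.9% of the acinar promoters and 69.3% of all, and TTCCC alone in 73.1% and 59.4%. Matches with the short gap are printed in capitals below, on the gene's own strand, so that a match on the opposite strand starts with GGGAA.
Cela1, minus strand, chr15:100687994-100688049: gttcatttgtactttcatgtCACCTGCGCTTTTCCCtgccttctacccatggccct
Ctrb1, minus strand, chr8:111691180-111691235: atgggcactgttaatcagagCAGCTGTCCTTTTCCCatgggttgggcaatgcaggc
Prss1, plus strand, chr6:41458804-41458859: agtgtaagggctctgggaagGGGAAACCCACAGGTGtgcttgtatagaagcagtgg
Rbpjl, plus strand, chr2:164403071-164403126: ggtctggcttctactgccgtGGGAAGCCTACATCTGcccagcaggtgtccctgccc

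The 3 of these matches in Cela1, Prss1 and Rbpjl start 109, 106 and 103 bases before the start site, and that in Ctrb1 205 bases before it. In Rbpjl a second match, with the long gap, overlaps the printed one. A match is a run of letters and not a measured binding site.

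The 12 proteases and carboxypeptidases are the enzymes that cut dietary protein. Their differences ran from 0.28 to 1.40, with limma adjusted p values from 0.339 to 0.748. Of the 12, 0 was called, beside 2.56% of all genes. Ctrc, a chymotrypsin that also breaks down trypsinogen, had the largest difference of the 31 genes at 1.40 (SE 0.72, adjusted p = 0.339). It read 5.44, 7.42 and 8.38 in mutants A, B and C and 5.41, 5.74 and 5.90 in controls A, B and C. Mutant A lay inside the control range here, and the difference on slide 2 was only -0.38, against 2.49 on slide 1. On the dimmer Ctrc probe mutant A was the lowest array, at 3.05 against 3.11, 3.29 and 3.42 in controls A, B and C. That probe had a difference of 1.99 between the groups.

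Ctrl, a chymotrypsin-like protease, showed the usual order, at 4.41, 6.90 and 8.26 in mutants A, B and C and 5.22, 5.26 and 5.77 in controls. Mutant C was 14.4-fold above mutant A. The elastases Cela1, Cela2a and Cela3b were at 0.58, 0.70 and 0.73, and mutant C exceeded mutant A in them by 6.31-, 7.52- and 8.49-fold. Among the trypsinogens the difference was 0.54 for Prss1, 0.34 for Prss2, 0.29 for Try4 and 0.28 for Try5. Ctrb1, a chymotrypsinogen, was at 0.29. The carboxypeptidases Cpa1 and Cpb1, which trim amino acids from the carboxyl end, were at 0.38 and 0.31.

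The 6 genes of fat digestion differed by 0.40 to 1.28 with 0 of 6 called, beside 2.56% of all genes. Pla2g1b, the secreted pancreatic phospholipase A2, read 1.94, 4.56 and 6.40 in mutants A, B and C and 2.23, 2.98 and 3.85 in controls A, B and C. Its difference was 1.28 (SE 1.12, adjusted p = 0.559), and mutant C was 22.2-fold above mutant A. By the brightest probe of each gene it had the largest rise on slide 1, at 3.25, beside -1.48 on slide 2. The dimmer Ctrc probe rose by 3.26 on slide 1.

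Pnlip, the main triglyceride lipase, and its relatives Pnliprp1 and Pnliprp2 had differences of 0.53, 0.79 and 1.01. The span from mutant A to mutant C widened along the same series, at 4.00-, 10.5- and 18.3-fold. Mutant C read 8.32, 8.31 and 5.72 in them, where the scanner's limit on that array was 8.67. The part of the limit in the smaller folds was not tested. Cel, the bile salt-activated lipase, was at 0.42, and Clps, the colipase that anchors Pnlip to fat droplets, at 0.40. On slide 2 these 6 genes ran from -1.48 to -0.73.

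The amylases, which cut starch, spanned 1.03 (Amy1) and 0.92 (brighter Amy2a5 probe) log2 units among the mutants, less than the median of the acinar genes. Amy1 read 6.82, 7.75 and 7.85 in mutants A, B and C and 7.41, 6.98 and 6.99 in controls A, B and C (difference 0.35, SE 0.30, adjusted p = 0.556). The brighter probe of Amy2a5 read 7.30, 7.90 and 8.22 in mutants and 8.10, 7.51 and 7.57 in controls (difference 0.083, SE 0.28, adjusted p = 0.888). In both, control A was the highest control array, whereas in Ptf1a, Rbpjl and the lipases it was the lowest. The sign of the Amy2a5 difference turned under quantile normalization (-0.20), with the authors' deposited equalized values (-0.13) and with slide as a block (-0.14).

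Of the nucleases, Rnase1, the secreted pancreatic ribonuclease, followed the common order. It stood at 3.14, 5.30 and 6.92 in mutants A, B and C and at 3.35, 3.81 and 4.47 in controls A, B and C, with a difference of 1.24 (SE 0.93, adjusted p = 0.495). Dnase1, a secreted deoxyribonuclease, was the dimmest of the probes. Its signal was well above background on all control arrays but on mutant C alone among the mutants, so it entered the test through the controls. It read -6.17, -5.90 and -6.31 in mutants and -6.64, -6.07 and -5.89 in controls (difference 0.075, adjusted p = 0.871). The other 30 genes were well above background on all 6 arrays.

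The 6 genes for granule and other secreted proteins had differences of 0.56 to 1.09, again with 0 of 6 called, beside 2.56% of all genes. Cuzd1, a zymogen granule membrane protein, read 0.05, 2.37 and 4.12 in mutants A, B and C and 0.52, 1.45 and 2.19 in controls A, B and C. It had the lowest slide 2 difference of the 31 genes, at -1.77, beside 2.73 on slide 1. Gp2, the major glycoprotein of the granule membrane, was at 1.09, and Spink3, a secreted trypsin inhibitor (Spink1 in RefSeq), at 1.00. Klk1, tissue kallikrein, was at 0.94, while the granule proteins Sycn (syncollin) and Zg16 were at 0.64 and 0.56. Mutant C exceeded mutant A in these 6 genes by 2.58 to 4.29 log2 units.

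The brightest acinar probes reached the limit of the scanner. The files give a saturation value of 628872 to 634076 intensity units. In mutant C, 12 of the 36 probes had saturated pixels, against 0 in mutant A, 1 in mutant B, 0 in controls A and B and 1 in control C. The saturation flag of the scanner software was set for 0 of these spots, although in Cel all 53 pixels of the mutant C spot were saturated. On that array 24 of the 36 probes lay within 1 log2 unit of the limit, against 2 and 14 in mutants A and B and 4, 10 and 14 in controls A, B and C. For the 12 probes the value of mutant C is a lower limit of its level. The 11 genes whose representing probe had saturated pixels on any array were Cel, Cela1, Cela3b, Clps, Cpa1, Cpb1, Ctrb1, Prss2, Sycn, Try5 and Zg16, so that the folds of mutant C over mutant A given for them are lower limits too.

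**Figure D3:**
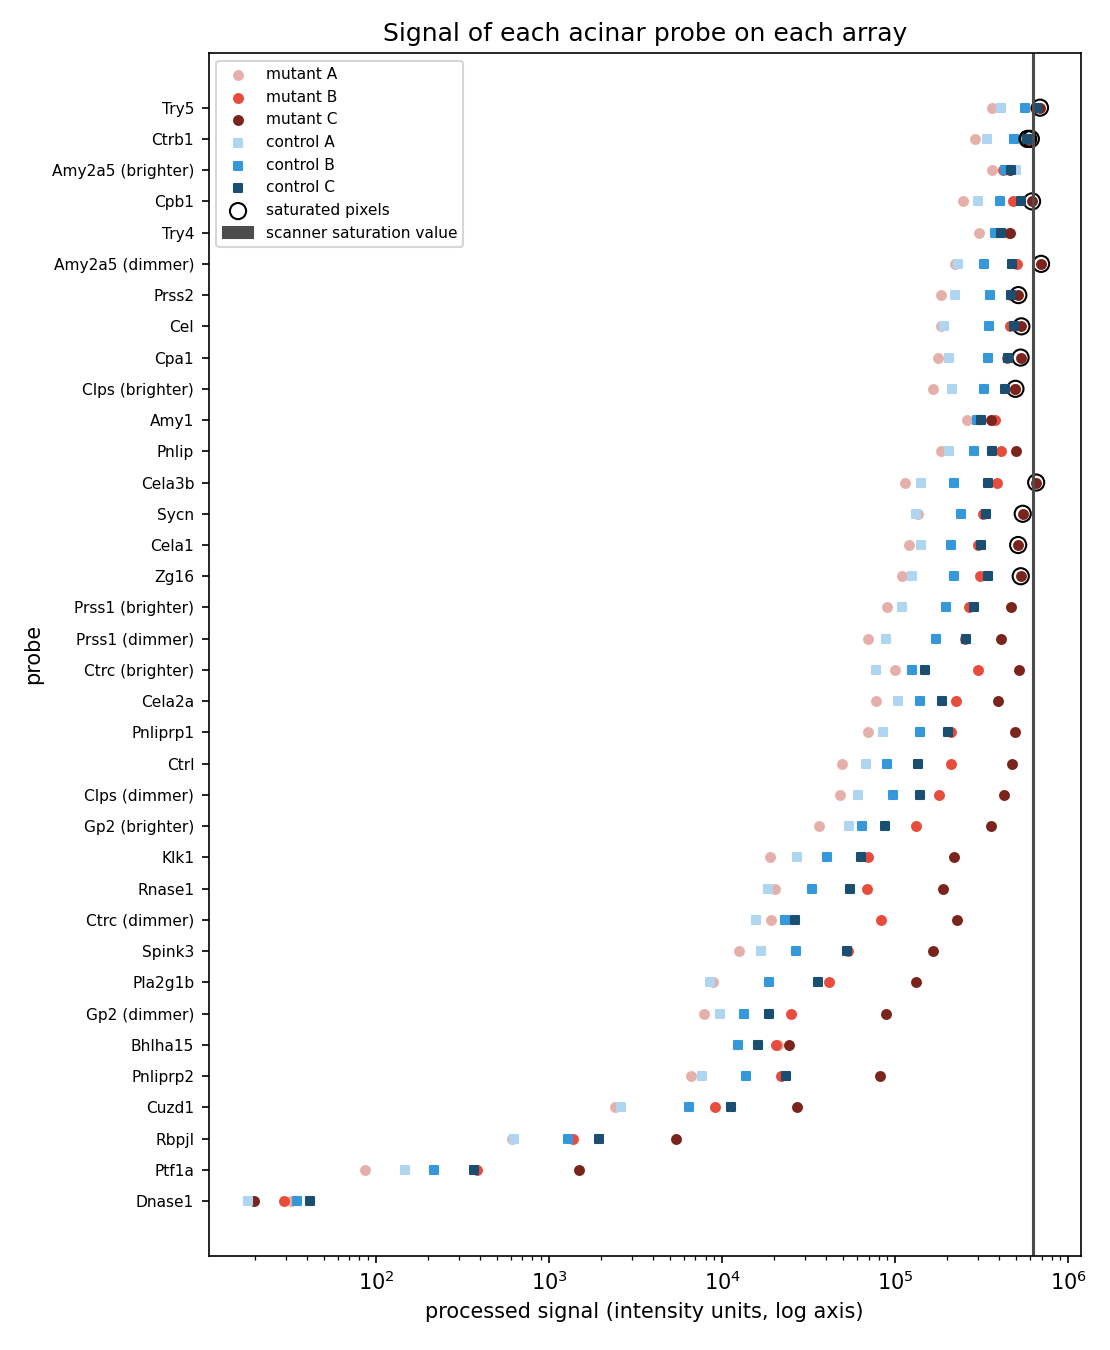
Processed (detrended) signal of each of the 36 acinar probes on a log axis, with probes ordered by brightness, mutants as circles, controls as squares, and a ring where a spot had saturated pixels. The vertical band is the scanner's saturation value, and 12 of the 14 rings belong to mutant C.

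The 11 genes with saturated pixels had a median span of 2.14 log2 units among the mutants, and the 20 without had 3.56. In the 20 genes without saturated pixels the median difference was 0.81, with 2.21 on slide 1 and -1.05 on slide 2. On the normalized scale the scanner's limit stood at 8.11, 8.49 and 8.67 in mutants A, B and C and at 8.44, 8.07 and 8.0 in controls A, B and C, since the 75th percentile differed between arrays. The brighter Amy2a5 probe and Amy1 had control A as the highest control, as this limit did, but mutant A as the lowest array, which it was not for the limit. The hormone gene Ins2 followed them, at 7.50, 8.16 and 8.62 in mutants and 8.29, 7.64 and 7.64 in controls. The part of the limit in these values was not tested.

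In the 5 genes with 2 probes, both probes are annotated to the same transcript and differ in brightness. That both read this transcript alone was not tested. In each of the 5 the probe that was dimmer by its mean over the arrays had the wider span from mutant A to mutant C. For Clps it was 3.71 log2 units with the dimmer and 2.14 with the brighter probe, and for Ctrc 4.14 and 2.94. The probes of Amy2a5 spanned 2.21 and 0.92, and those of Gp2 (4.05 and 3.89) and Prss1 (3.13 and 2.94) differed less. The dimmer Amy2a5 probe was, however, the brighter of its pair in mutants B and C and in control C. In mutant C it read 695750 intensity units against 463018, with 46 of 49 pixels saturated. For Amy2a5 the wider span thus did not belong to the dimmer signal on every array.

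**Figure D4:**
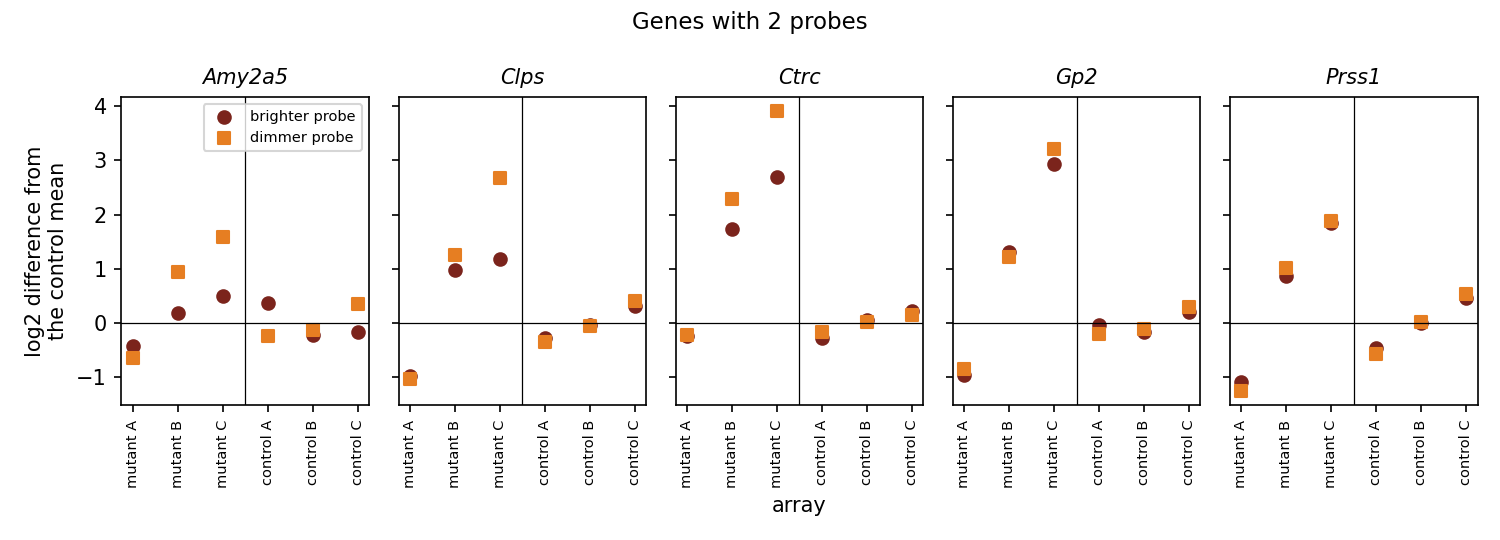
Log2 signal on each array minus the mean of the controls, for the 5 genes with 2 probes, with mutants left of controls. In mutant C the brighter probe (circle) lies below the dimmer one (square) for Amy2a5, Clps and Ctrc by over 1 log2 unit, and control A is above 0 with the brighter Amy2a5 probe alone.

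The dimmer probe of Amy2a5 showed the common pattern, with a difference of 1.50 on slide 1 and -0.75 on slide 2, where the brighter gave -0.040 and -0.23. With the dimmest probe of every gene, 0 of the 31 genes was called and the median difference was 0.70.

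A second list held 18 further acinar genes, of which 15 were tested, and most moved with the first. By the mean over the list, relative to the control mean, the arrays stood at -0.68, 0.79 and 2.40 in mutants A, B and C and at -0.39, -0.05 and 0.44 in controls A, B and C. The 31 genes above gave -0.81, 0.93 and 1.89 in mutants and -0.28, -0.07 and 0.35 in controls. Of the 15, 1 was called higher and 0 lower, beside 2.56% of all genes, and the median difference was 0.93. Mutant C was the highest array in 14 of them.

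The widest swing of the list was in 1810009J06Rik, at -3.10, 0.73 and 4.76 in mutants A, B and C and -1.35, 0.90 and 2.15 in controls A, B and C. Its slide differences were 4.09 and -4.62, and the difference between groups was 0.23 (adjusted p = 0.958). Cckar, the cholecystokinin receptor of acinar cells, was at 1.12 (adjusted p = 0.612). The acinar water channel gene Aqp12 was at 1.14, the disulfide isomerase Pdia2 at 1.16 and the serpin Serpini2 at 1.31. Also uncalled were 2210010C04Rik (1.29), Tmed6 (0.93), Aqp8 (0.83), Erp27 (0.81), Gata4 (0.57), Nr5a2 (0.36), Rab3d (0.082) and Gnmt (-0.13).

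Gatm, an enzyme of creatine synthesis that is abundant in the pancreas and also made in kidney, was the called member. It stood at 2.32, 2.09 and 2.56 in mutants A, B and C and at 1.10, 0.31 and -0.17 in controls A, B and C. All mutants lay above all controls, and Gatm rose by 1.92 (SE 0.33, limma, adjusted p = 0.0478, and 0.0633 with slide as a block). The rise was 1.23 on slide 1 and 2.25 on slide 2, so its sign did not follow the acinar enzymes on slide 2. Rab3d, a granule GTPase, had its 6 arrays between 2.31 and 2.62.

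Outside both lists, array profiles among the closest to the mean of the acinar genes belonged to Tff2, Gjb2, Klk1b24, Klk1b8, Amy2a4 and a probe with no gene name. Cckar, Aqp12 and 2210010C04Rik, already given, were also among the closest. Their Pearson correlations over 6 arrays ran from 0.995 to 0.999, as a description of samples that share 2 slides. Tff2, a trefoil peptide, read 1.88, 4.44 and 6.03 in mutants A, B and C and 2.59, 3.06 and 3.66 in controls A, B and C. Gjb2 encodes connexin 26, a gap junction protein of acinar cells, and spanned 4.63 log2 units among the mutants. The paralogous kallikreins Klk1b24 and Klk1b8 may share signal with Klk1, and Amy2a4 with Amy2a5.

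**Figure D5:**
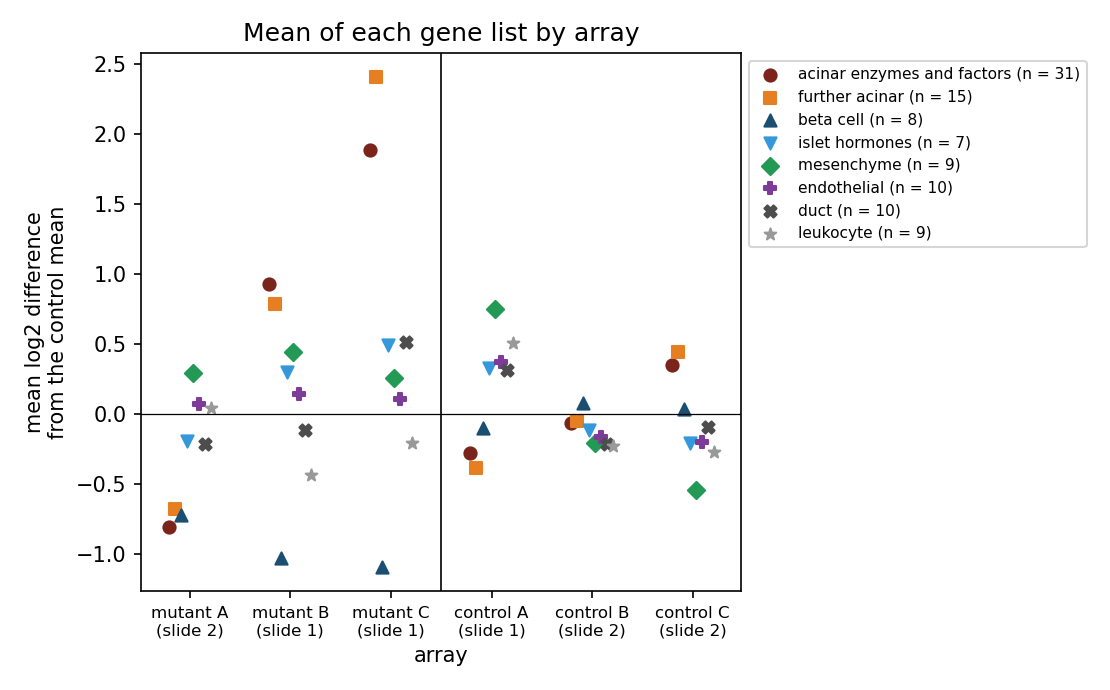
Mean log2 difference from the control mean for each gene list on each array, with mutants left of controls and the number of tested genes in the legend. Both acinar lists spread from below -0.6 in mutant A to above 1.8 in mutant C, while the beta cell list lies below -0.7 in all 3 mutants.

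Mutant C as the highest and mutant A as the lowest array was met in 9 of the 15 further acinar genes, 3 of 7 islet hormones and 1 of 10 duct genes, and in 0 of the beta cell, endothelial, leukocyte and mesenchyme genes. The 8 beta cell genes, Nkx6-1 among them, with mean shifts of -0.72, -1.03 and -1.09 in mutants A, B and C, were below the controls on both slides without exception. Among them Slc2a2, Slc30a8 and Ucn3 fell (limma, adjusted p = 0.0413, 0.0274 and 0.0222). Duct genes stood at -0.22, -0.12 and 0.51 in mutants and 0.31, -0.21 and -0.10 in controls. By the median over the list they stood at -0.24, -0.42 and 0.06 in mutants and 0.27, -0.21 and -0.05 in controls. Mesenchyme genes stood at 0.29, 0.44 and 0.25 in mutants and 0.75, -0.21 and -0.54 in controls, highest in control A, where the acinar mean was the lowest of the controls. Endothelial genes ran from 0.07 to 0.14 in mutants and from -0.20 to 0.37 in controls, and leukocyte genes from -0.44 to 0.04 in mutants and from -0.27 to 0.50 in controls. The islet hormones were at -0.19, 0.30 and 0.49 in mutants and 0.32, -0.12 and -0.21 in controls. Their probes are near or at the scanner's limit. Ins1 and Sst had saturated pixels on 5 arrays each, Gcg on 4 and Ppy on 3, while Iapp, Ins2 and Pyy had none. Hormone values with saturated pixels are lower limits. The hormone mean was highest in mutant C and lowest in control C, as was the limit, at 8.67 and 8.0. The part of the limit in the hormones' values, array order and calls was not tested.

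Of these lists, 3 of 8 beta cell genes were called, all lower, beside 2.56% of all genes. The numbers called were 0 of 10 duct, 0 of 10 endothelial, 0 of 9 leukocyte, 0 of 9 mesenchyme and 0 of 7 hormone genes. A count of 0 in lists this short does not set them apart from all genes. With slide as a block, where 2.99% of all genes were called, 1 duct gene, the chloride channel Cftr, was called as well (limma, adjusted p = 0.0155). Its differences were 2.59 on slide 1 and 2.45 on slide 2. Without the block its difference was 3.11 with a limma adjusted p of 0.083. Its controls A, B and C were dim, at -5.05, -7.03 and -6.47. Of the 10 duct genes 7 went the other way, and the median difference of the list was -0.19. The lowest acinar mean was in mutant A, the array on which the beta cell list was closest to the controls among the mutants. With 3 mutant arrays this order has no test, and the part of acinar RNA in other genes' differences was not tested.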

How the data were processed

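RNA (150 ng per sample) was labelled with Cy3 and hybridised to 6 Agilent mouse arrays, 1 sample each. Per the submitters' processing notes the authors used Agilent Feature Extraction 10.7.3.1. Per the file headers, the deposited intensity values had spatial and multiplicative trends removed, no local background subtracted and no scaling between arrays, and probe coordinates are mm9. A deposited table of intensities, equalized by the authors in a way not given in the sources used here, served as an alternative. The flags for background, outliers and saturated pixels (other values) are those of the deposited files.

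The deposited signals were put on the log2 scale, replicate spots of a probe were averaged, and each array's 75th percentile was subtracted. Of 39429 probes, 28363 were tested, being well above background (on at least 50% of their spots) on every array of at least 1 group. A gene name was represented by its brightest tested probe, which gave 22777 genes. The test was that of limma 3.58.1 (lmFit and eBayes, R 4.3.3) two-sided, with Benjamini-Hochberg adjustment over all genes. The slide was read from the array barcode. Signal over background takes the place of depth, and 3 arrays per group limit the precision. The labels give the samples as separate pools, so p-values measure the spread between pools. The fits were tested on simulated data.

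The members, lists, roles and tests were chosen with earlier results of these data known. The text names all members with a probe, Nkx6-1, the tested further acinar genes, the members of smallest p of the other lists and the 10 genes of most similar profile, except 1 gene that is not reported here. The other lists were islet hormones, beta cell, duct, endothelial, leukocyte and mesenchyme.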

Additional observations from a re-analysis of the deposited data

How the results depend on the processing

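In all settings tried 0 acinar genes were called, and the slide medians kept their signs, from 1.33 to 2.27 on slide 1 and from -1.27 to -0.84 on slide 2 when 1 array was left out. The median difference ran from 0.000237 (without mutant C) to 1.35 (without mutant A) when 1 array was left out. The dimmest probe, the removal of genes with saturated pixels and the removal of outlier spots were chosen after seeing the data. Against 584 genes called in all, the number was 12 to 405 when 1 array was left out, namely 12 (control B), 17 (control C), 22 (mutant B), 164 (mutant C), 302 (mutant A) and 405 (control A).

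Signs of uncalled genes turned for Amy2a5 (-0.20), Cpb1 (-0.016) and Try4 (-0.026) under quantile normalization, and for Amy2a5 with the deposited values (-0.13) and with slide as a block (-0.14). The cause was not tested. When 1 array was left out the sign turned in 16 genes. Their lowest and highest differences were Amy2a5 (-0.12 to 0.34), Cela1 (-0.016 to 1.31), Cpa1 (-0.047 to 1.03), Cpb1 (-0.094 to 0.85), Cuzd1 (-0.18 to 1.86), Dnase1 (-0.14 to 0.23), Klk1 (-0.046 to 2.00), Pnliprp1 (-0.0061 to 1.69), Pnliprp2 (-0.042 to 2.06), Prss1 (-0.11 to 1.36), Prss2 (-0.052 to 0.97), Ptf1a (-0.19 to 2.15), Rbpjl (-0.22 to 1.65), Spink3 (-0.014 to 2.13), Try5 (-0.015 to 0.73) and Zg16 (-0.073 to 1.35). Without mutant C alone, 15 genes turned.

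The letters A to C are shared by the groups but not stated to mark pairs. Deviations of samples with the same letter correlated at -0.23, -0.19 and -0.031. All of these pairs lay on different slides, as did the pairs at -0.12 and -0.099. Pairs on the same slide ran from 0.084 to 0.23. The sign thus went with the slide, so these values cannot decide on pairs, and no pairing was assumed. With the replicate block 0 genes in all were called. The scanner's limit bounds the brightest probes, and 3 arrays per group bound the precision.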
